A study of Homo sapiens with 10 samples.

Results

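The 33 genes described here encode keratins, claudins and other proteins of epithelial cell junctions. They were chosen by symbol, and each of the 33 matched 1 row of a table of 58870 genes. The list holds 7 keratins, 8 claudins, 7 tight junction strand partners and scaffolds, 6 genes of cadherins, catenins and EPCAM, 4 desmosome genes and MALL, which encodes a membrane proteolipid. Polyadenylated RNA was sequenced from LS180, an established human colorectal cancer cell line, in stable lines made for CRISPR interference (CRISPRi) of RNASE1, a secreted ribonuclease. In CRISPRi a catalytically inactive Cas9 is brought by a guide RNA to the start of a gene and lowers its transcription. Lines sg1, sg2 and sg3 carried RNASE1 guides, and lines NTC1 and NTC2 were the controls. Each of the 5 lines gave 1 library lettered A and 1 lettered B, 10 in all. All lines were grown in the same serum-containing medium and received no drug. The labels do not say whether a line was a clone or a pool, which repressor was used or what drove it, or whether A and B were separate cultures. The p-values below therefore measure the spread between these libraries and lines, which may be technical.

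Keratins are the intermediate filament proteins of epithelia, and each filament pairs a type II keratin such as KRT8 with a type I keratin such as KRT18 or KRT19. Claudins form the strands of the tight junction, which seals the space between cells, and occludin with its relatives joins them there. ZO proteins tie the strands to actin, cadherins and catenins hold the adherens junction below, and desmosomes anchor the keratin filaments to the membrane. Simple intestinal epithelium is known for KRT8, KRT18, KRT19 and KRT20 and for the cadherins CDH1 and CDH17.

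The libraries held between 39026564 and 45050950 counts, and the 33 genes took 0.866% to 1.03% of them. RNASE1, the targeted gene, stood at 16.4 to 23.7 counts per 1000000 (CPM) in the 4 NTC libraries and at 1.02 to 3.75 CPM in the 6 guide libraries. All 10 colorectal epithelium markers of the list used averaged at least 1 CPM, and their summed level was 2122 to 2255 CPM. Summed fibroblast markers reached 5.58 CPM at most and summed endothelial markers 6.37 CPM. Leukocyte markers summed to 35.9 to 47.0 CPM, of which LYZ, a lysozyme gene also known from epithelia, averaged 34.2 CPM. PTPRC, MS4A1, COL1A2, POSTN, KDR and EMCN had no count in any library.

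Levels between genes were compared per length, as counts divided by the summed length of a gene's exons and scaled so that all genes of a library sum to the same total, as in TPM values. In the NTC lines KRT18 led with 1734 ± 2.90 (SD, n = 2 lines), followed by KRT8 with 1527 ± 39.1 and by EPCAM, an adhesion molecule of epithelial cells, with 1373 ± 6.22. CLDN7 with 606 ± 17.2, KRT19 with 577 ± 21.5 and CLDN3 with 472.5 ± 6.58 came next. Over the 10 libraries the ranges of KRT18 (1499 to 2058) and KRT8 (1251 to 1771) overlapped, as did those of CLDN7 (548 to 666) and KRT19 (497.5 to 675.5). The order of KRT18 and KRT8 also depended on the length used. KRT8 per length was 0.877 times KRT18 in the A libraries with summed exons, but 1.37 times KRT18 with the longest transcript and 1.33 times with the coding length. CDH1, the E-cadherin gene, stood at 178.5 ± 3.33, and the intestinal cadherin CDH17 at 246 ± 4.54. Among the desmosome genes DSG2 stood at 262 ± 5.21, PKP2 at 109.7 ± 1.11, PKP3 at 98.8 ± 2.94 and DSC2 at 35.4 ± 0.414, but with the coding length DSC2 (46.0 ± 0.714) stood above PKP3 (39.7 ± 1.04). Of the tight junction plaque, TJP3 stood at 33.3 ± 0.451, TJP1 at 28.0 ± 1.61 and CGN at 11.1 ± 1.03, and of the plakoglobin and catenin genes JUP stood at 195 ± 2.12, CTNNA1 at 193 ± 2.60 and CTNND1 at 56.6 ± 0.0684. MALL stood at 49.5 ± 1.04. The lowest 4 of the 33 genes were CLDN23 at 3.65 ± 0.473, CLDN15 at 3.28 ± 0.122, KRT7 at 3.05 ± 0.0199 and KRT23 at 0.682 ± 0.108. Other orders also changed with the length used. With the coding length CDH1 (111 ± 2.49) was almost level with CDH17 (109 ± 1.57), and TJP1 (15.5 ± 0.838) stood above TJP3 (13.9 ± 0.140). CLDN4 (451 ± 1.15) then stood above KRT19 (319 ± 10.5) and CLDN3 (259 ± 4.63). With the longest transcript CTNNA1 (316 ± 3.95) stood above JUP (195.2 ± 1.945).

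**Figure D1:**
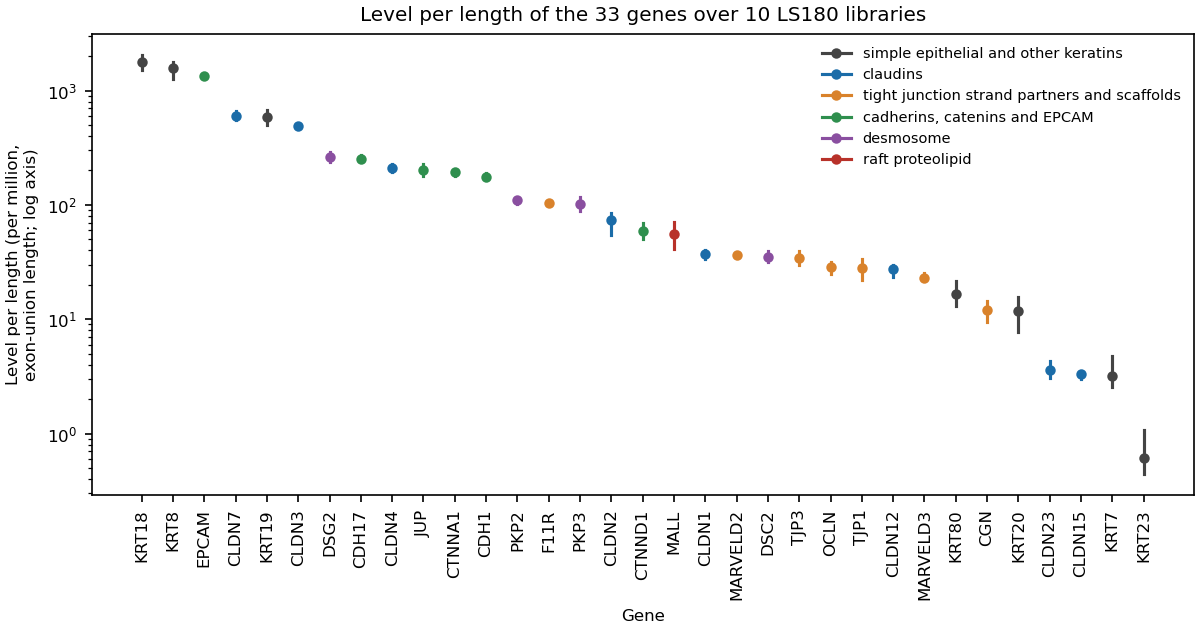
Level per length (TPM-like, from counts and summed exon length, log axis) of each of the 33 genes, coloured by role. Points are means of the 10 libraries and bars run from the lowest to the highest library; KRT18, KRT8 and EPCAM stand highest and KRT23 lowest.

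The keratin output was almost entirely KRT8, KRT18 and KRT19. With summed exon lengths, KRT18 made up 44.9%, KRT8 39.4% and KRT19 14.8% of the summed level of the 7 keratins. KRT80 gave 0.418% and KRT20, a keratin of differentiated intestinal cells, 0.308%. KRT7 gave 0.0805% and KRT23 0.0161%. KRT8 exceeded KRT18 with the longest transcript (49.9% against 36.5%) and with the coding length (51.1% against 38.3%). The share of KRT19 with these lengths was 13.1% and 9.88%. Of 25 further keratins in the table, 7 averaged at least 1 CPM, the most abundant being KRT10 at 28.2 CPM, and KRT24 and KRT76 had no count.

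CLDN7 made up 41.4%, CLDN3 33.8% and CLDN4 14.7% of the summed level of the 8 claudins. CLDN2, which forms a cation and water channel, gave 5.10%, CLDN1 2.58% and CLDN12 1.90%. CLDN23 and CLDN15 gave 0.249% and 0.232%. With coding length in place of summed exons CLDN4 (28.8%) exceeded CLDN3 (17.0%), while CLDN7 stayed first with 38.8%. CLDN12 likewise exceeded CLDN1 with the coding length (4.56% against 3.90%) and with the longest transcript (3.08% against 2.33%). None of 16 further claudins averaged 1 CPM, and 7 of them had no count in any library.

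Several of these genes lie close together or overlap, which matters because the labels describe no strand marking in the library preparation. KRT8 (chr12:52897187-52949954, minus strand, GRCh38, GENCODE 29) and KRT18 (chr12:52948871-52952901, plus strand) overlap, so reads in the shared stretch cannot be assigned by strand. CLDN2 overlaps MORC4 (76.3 CPM), CLDN7 overlaps ELP5 (36.8 CPM), MARVELD3 overlaps PHLPP2 (32.9 CPM) and TJP1 overlaps the pseudogene HMGN2P5 (20.8 CPM), each on the opposite strand. CLDN12 overlaps GTPBP10 (46.0 CPM) on the same strand. CLDN3 and CLDN4 are 29.3 kb apart on chromosome 7, MARVELD2 and OCLN 48.0 kb apart on chromosome 5, and KRT20 and KRT23 37.5 kb apart on chromosome 17. Pseudogenes named after KRT8 took counts equal to 0.296% of those of KRT8, and those named after KRT18 0.0966%.

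Promoters are shown for 3 members in each direction that differed between the B and A libraries, so that their sequence can be read beside those values. The windows run from 250 bases before to 50 after a transcription start and come from RefSeq on GRCh38.p14. Of the 33 genes, 19 had at least 1 window, 32 in all. The 3 falling and 3 rising genes with the greatest fold were taken among those past the test. Genes also needed a mean of at least 10 CPM and a transcription start within 1 kb of the GENCODE gene start. This rule was set after the windows, matches and folds had been seen and replaced a first set picked by hand. It left out genes of greater fold. KRT80, KRT7, KRT19 and KRT18, which fell more than CLDN2, had no window. KRT8 also fell more, but its window started 23485 bases from the GENCODE start. KRT20 rose more than the rising genes shown but averaged 5.875 CPM. Capitals mark matches, on either strand, to 5 motifs. They are the TATA box, written TATAAA, the CCAAT box, searched as CCAAT, the GC box, written GGGCGG, the AP-1 motif, searched as TGANTCA, and an E-box, written CAGGTG.
MALL (chr2:110115773-110116072, minus strand): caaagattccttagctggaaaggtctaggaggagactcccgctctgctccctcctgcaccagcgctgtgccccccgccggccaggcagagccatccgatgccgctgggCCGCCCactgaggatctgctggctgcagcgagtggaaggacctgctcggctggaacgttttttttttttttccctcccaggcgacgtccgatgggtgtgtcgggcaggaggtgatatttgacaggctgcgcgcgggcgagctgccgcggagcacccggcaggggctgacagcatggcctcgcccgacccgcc
CLDN2 (chrX:106899914-106900213, plus strand): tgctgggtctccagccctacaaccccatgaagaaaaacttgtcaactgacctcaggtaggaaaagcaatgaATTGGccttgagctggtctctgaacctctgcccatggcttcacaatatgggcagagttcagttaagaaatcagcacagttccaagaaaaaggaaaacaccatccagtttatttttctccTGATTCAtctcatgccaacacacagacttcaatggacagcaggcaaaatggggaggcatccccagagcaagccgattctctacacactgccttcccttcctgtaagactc
CLDN7 (chr17:7263164-7263463, minus strand): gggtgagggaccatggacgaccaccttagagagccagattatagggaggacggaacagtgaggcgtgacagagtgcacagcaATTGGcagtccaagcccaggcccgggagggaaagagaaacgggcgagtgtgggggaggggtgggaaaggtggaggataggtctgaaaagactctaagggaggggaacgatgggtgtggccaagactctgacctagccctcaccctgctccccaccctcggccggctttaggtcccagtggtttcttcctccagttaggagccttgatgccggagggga
TJP1 (chr15:29969000-29969299, minus strand): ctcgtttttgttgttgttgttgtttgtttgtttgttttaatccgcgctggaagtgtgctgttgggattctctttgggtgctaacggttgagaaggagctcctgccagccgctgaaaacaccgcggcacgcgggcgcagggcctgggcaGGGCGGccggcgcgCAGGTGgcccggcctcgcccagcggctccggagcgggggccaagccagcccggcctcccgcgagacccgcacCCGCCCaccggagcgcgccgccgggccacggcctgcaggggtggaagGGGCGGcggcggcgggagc
TJP3 (chr19:3708134-3708433, plus strand): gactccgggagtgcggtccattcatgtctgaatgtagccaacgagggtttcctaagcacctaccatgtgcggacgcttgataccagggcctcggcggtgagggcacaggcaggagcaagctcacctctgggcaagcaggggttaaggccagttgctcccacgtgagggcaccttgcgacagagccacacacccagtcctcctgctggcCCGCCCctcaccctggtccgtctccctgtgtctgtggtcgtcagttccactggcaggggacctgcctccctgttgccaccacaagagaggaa
CGN (chr1:151511137-151511436, plus strand): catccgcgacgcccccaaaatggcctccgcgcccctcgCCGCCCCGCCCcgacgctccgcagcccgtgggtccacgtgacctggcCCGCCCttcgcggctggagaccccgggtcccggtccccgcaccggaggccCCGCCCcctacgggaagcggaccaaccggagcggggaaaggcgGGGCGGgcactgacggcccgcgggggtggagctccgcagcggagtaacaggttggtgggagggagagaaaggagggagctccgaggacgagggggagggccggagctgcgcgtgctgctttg

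GGGCGG, the GC box, matched 5 times in the CGN window, where the first 2 matches share 1 base, 3 times in that of TJP1 and 1 time each in those of MALL and TJP3. CCAAT matched in the windows of CLDN2 and CLDN7, TGANTCA, the AP-1 motif, in that of CLDN2, and the E-box CAGGTG in that of TJP1. Over all 32 windows of the genes, GGGCGG was found in 62.5%, against 45.0% of 35116 RefSeq windows of the same length. The share was 31.3% against 20.6% for CAGGTG, 31.3% against 34.6% for CCAAT, 9.38% against 7.71% for TGANTCA and 3.13% against 11.5% for TATAAA. Windows of 1 gene can overlap, and a match is a description of letters only.

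The study's main comparison asks what changes when RNASE1 is repressed. For this, the A and the B counts of a line were added, and the 3 guide lines were set against the 2 NTC lines. In bulk RNA, fewer cells expressing a gene and less RNA per cell cannot be told apart. RNASE1 fell by 3.26 on the log2 scale (adjusted p = 8.37e-05, SE 0.231, edgeR's quasi-likelihood test with Benjamini-Hochberg adjustment). None of the 33 genes passed the adjusted threshold of 0.05 in that test, where 4 of 17335 genes (0.0231%) did. At an unadjusted p under 0.05 stood 7 of the 33 genes (21.2%), against 1384 of all genes tested (7.98%), and DESeq2 called 1 of the 33, MALL, among 55 genes in all. The 33 fold changes had a median of 0.01, against -0.0008 over all genes, with 20 above 0 and 13 below. For 32 of the 33, all but KRT23, the 95% interval lay within a 1.5-fold change in either direction, as it did for 73.9% of all genes tested.

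The 7 genes at an unadjusted p under 0.05 all had higher values in guide lines, and they are singled out here after their values were seen. MALL belongs to the MAL family of raft-associated proteolipids. Its level, in the order NTC1, NTC2, sg1, sg2 and sg3 used throughout, was 49.3, 52.9, 61.3, 58.2 and 56.8 CPM in the A libraries. In the B libraries it was 33.9, 35.3, 38.5, 47.6 and 40.5 CPM. Within each letter all guide libraries lay above both NTC libraries, whereas across letters the groups overlapped. The fold change was 0.25 on the log2 scale (SE 0.042, 95% interval 0.16 to 0.34), with an adjusted p of 0.109 in edgeR and 0.0014 in DESeq2. By line, against both NTC lines, its fold change was 0.22 in sg1, 0.31 in sg2 and 0.18 in sg3.

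JUP encodes plakoglobin, a catenin shared by adherens junctions and desmosomes. It stood at 245, 252, 261, 264 and 275 CPM in the A libraries and at 274, 274, 275, 293 and 299.5 CPM in the B libraries. CTNND1, which encodes p120-catenin, stood at 123, 129.6, 142, 137 and 131 CPM in A and at 143, 145, 156, 161 and 149 CPM in B. PKP3, the plakophilin 3 gene of desmosomes, stood at 96.1, 94.1, 103, 97.7 and 102 CPM in A and at 108, 108, 110.2, 116 and 111 CPM in B. In each of these genes the guide libraries lay above both NTC libraries within each letter, most narrowly for JUP in the B libraries, with 275.12 CPM in sg1 against 274.45 CPM in NTC2. Together with MALL that made 4 of the 33 genes, and 2.3% of all genes tested had this pattern. No member had all guide libraries below both NTC libraries within each letter, a pattern of 1.49% of all genes tested.

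The log2 fold changes between guide and NTC lines were 0.09 for JUP (SE 0.031, adjusted p = 0.469), 0.11 for CTNND1 (SE 0.033, adjusted p = 0.388) and 0.07 for PKP3 (SE 0.027, adjusted p = 0.505), all from edgeR. KRT80 had 0.22 (SE 0.062, adjusted p = 0.337), CLDN2 0.16 (SE 0.038, adjusted p = 0.259) and CGN, the cingulin gene of the tight junction plaque, 0.17 (SE 0.051, adjusted p = 0.395). These values moved by over 1.5 times when 1 control library or line was left out. Leaving out 1 library leaves its line with 1 letter only, so any difference between A and B enters the comparison. CLDN2 had 0.04 without NTC2 B and 0.26 without NTC2 A, and KRT80 0.11 without NTC1 B and 0.32 without NTC1 A. CTNND1 had 0.05 and JUP 0.05 without NTC1 A, against 0.16 and 0.13 without NTC1 B. PKP3 had 0.03 without NTC2 A and 0.12 without NTC2 B, and CGN 0.09 without the line NTC2 and 0.24 without NTC1. Leaving out a whole line keeps both letters in each line that stays. Without the line NTC1 and without the line NTC2, CLDN2 had 0.21 and 0.10, and KRT80 0.20 and 0.24. In the same order CTNND1 had 0.09 and 0.13, JUP 0.08 and 0.10 and PKP3 0.08 and 0.06. Across 9520 genes of 10 CPM or more, this fold change followed gene GC content with a Spearman rho of 0.499, and across 28 of the members with 0.476; genes are not independent replicates. With offsets for GC content the values became 0.23 for MALL, 0.05 for JUP and 0.02 for PKP3. They were 0.11 for CTNND1, 0.14 for CLDN2, 0.20 for KRT80 and 0.14 for CGN, and still none of the 33 was called. The part of GC content in the remaining values was not tested.

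The keratins that make up most of the output gave narrow intervals. KRT8 had a log2 fold change of 0.05 (95% interval -0.04 to 0.13), KRT18 of 0.05 (-0.006 to 0.11) and KRT19 of 0.03 (-0.03 to 0.10) between guide and NTC lines. For the E-cadherin gene CDH1 the interval was -0.11 to 0.04, for EPCAM -0.11 to 0.01 and for TJP1, which encodes ZO-1, -0.10 to 0.05. CLDN7 spanned -0.11 to 0.03, CLDN3 -0.005 to 0.13 and CLDN4 -0.08 to 0.07. KRT23, the least abundant member, was the least certain, with -0.28 (95% interval -0.86 to 0.30).

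Each guide line alone was also set against the 2 NTC lines. In sg1, sg2 and sg3 none of the 33 genes was called by edgeR, and none was by DESeq2; 0.00609% of all genes were called in each of sg1, sg2 and sg3. No member stood at an unadjusted p under 0.05 in these fits, in which the spread between the A and B libraries of a line counts as error. With the letter as a replicate block, which takes that difference out, 9, 5 and 4 members reached an unadjusted p under 0.05 in sg1, sg2 and sg3, and still none passed the adjusted threshold. Of all 16411 genes tested, 4, 2 and 6 passed it with the block. NTC2 against NTC1 called no member and 0% of all genes, and no member was called for a difference among the guide lines (0% of all genes). In both of these comparisons 0 members had an unadjusted p under 0.05 without the block and DESeq2 called 0 members. With the block, 2 members reached an unadjusted p under 0.05 in NTC2 against NTC1 and 3 among the guide lines. The share of all genes at an unadjusted p under 0.05 was not counted with the block. The numbers of members at that level therefore have no background to be judged against. The fold changes ranged from -0.21 to 0.34 in sg1, from -0.37 to 0.31 in sg2 and from -0.21 to 0.21 in sg3, against -0.27 to 0.31 between the 2 control lines. These ends came from different genes. KRT23, at 0.480 CPM on average, was the lowest in each comparison. The highest were KRT80 in sg1, MALL in sg2, KRT20 in sg3 and CLDN23, at 2.12 CPM on average, between the control lines. Between the control lines KRT80 had 0.03, MALL 0.09 and KRT20 0.29.

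**Figure D2:**
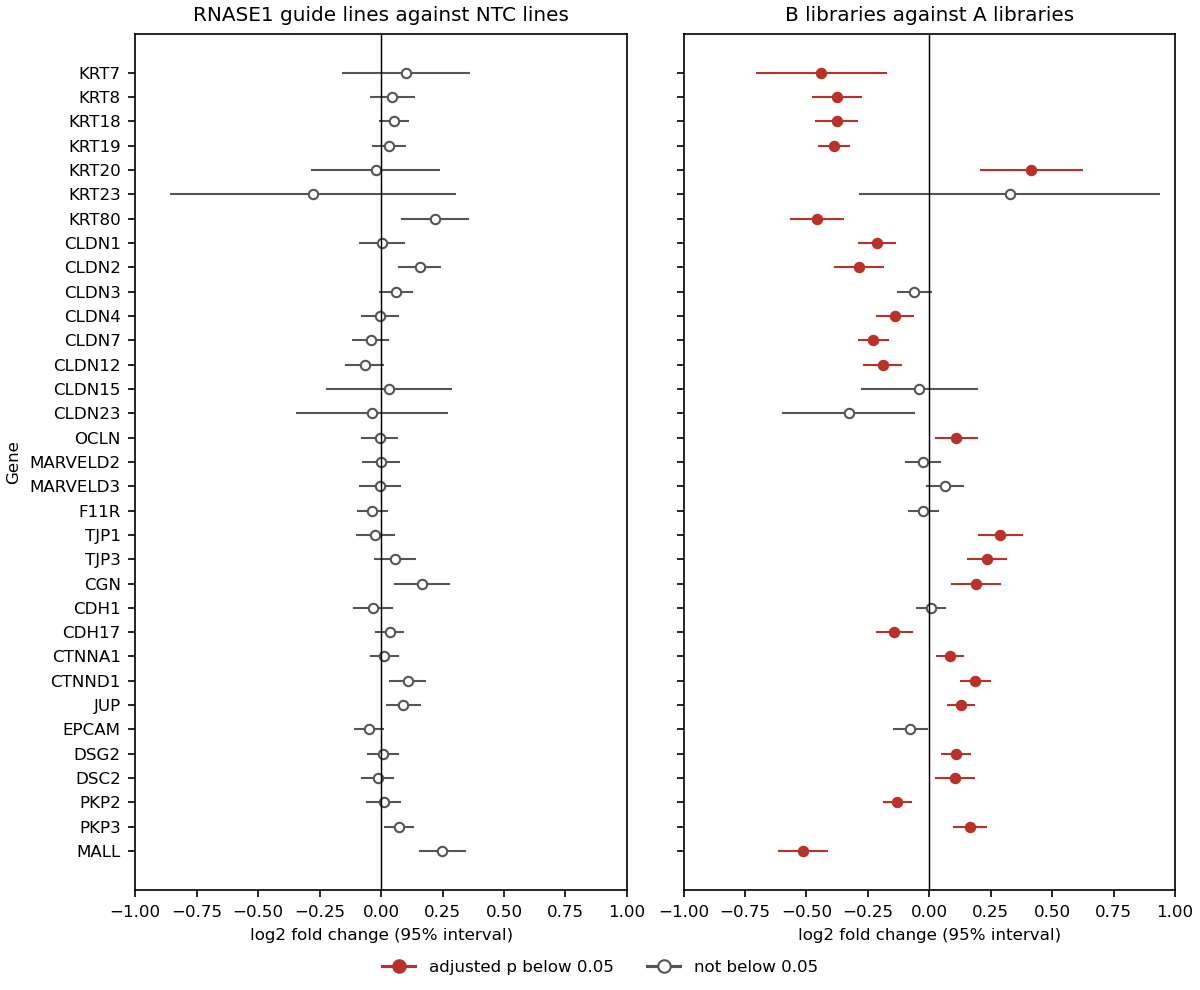
Log2 fold change of each of the 33 genes with its 95% interval, for guide lines against NTC lines (left) and for B against A libraries (right). No gene passed an adjusted p of 0.05 on the left; on the right 24 did (filled red points), with the called claudins and the called keratins other than KRT20 to the left of 0 and most scaffold, catenin and desmosome genes to the right.

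Between the letters, most of these genes passed the test. With line as a covariate, 5 B libraries were compared with 5 A libraries, and 24 of the 33 genes (72.7%) passed the adjusted threshold in edgeR. Of all 16411 genes tested, 29.6% did, and of the 9523 genes with a mean of at least 10 CPM and an annotated length, 43.6% did; 22 of the 28 members in that range (78.6%) were called. In B, 11 members were higher, where 14.6% of all genes were, and 13 were lower, where 15% of all genes were. All B libraries lay above all A libraries for 6 members (9.64% of all genes) and below for 12 members (9.58%). The median log2 fold change of the members was -0.04, against 0.0004 over all genes.

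By role, the calls fell as follows. Of 7 keratins, 5 were lower in B and 1 was higher; of 8 claudins, 5 were lower and none was higher. Of 7 strand partners and scaffolds, 4 were higher and none was lower. Cadherins, catenins and EPCAM gave 3 higher and 1 lower, the desmosome genes 3 higher and 1 lower, and MALL was lower. In B, 14 members were lower in all 5 lines and 10 were higher in all 5. The share of all genes with 1 direction in all 5 lines was not counted, so these numbers have no background to be judged against.

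KRT8 stood at 3360.4, 3153, 3269, 3288 and 3334 CPM in the A libraries and at 2398, 2554, 3014, 2276 and 2453 CPM in the B libraries. KRT18 stood at 1755, 1708, 1699.5, 1808 and 1781 CPM in A and at 1253, 1377, 1508, 1303 and 1309.6 CPM in B. KRT19 stood at 433, 406, 428, 420.4 and 417 CPM in A and at 312, 321, 343, 307 and 326 CPM in B. For each of these 3 keratins every B library lay below every A library, and the B library of sg1 was the highest of the B libraries. They fell by 0.38 (SE 0.046, adjusted p = 6.87e-05), 0.38 (SE 0.039, adjusted p = 2.10e-05) and 0.39 (SE 0.029, adjusted p = 2.28e-06) on the log2 scale in edgeR, or to 0.770, 0.770 and 0.764 of the A level. Together KRT8, KRT18 and KRT19 took 0.518% to 0.551% of the counts in A and 0.393% to 0.487% in B. The balance between partners was almost the same, with KRT8 per length at 0.877 ± 0.0209 times KRT18 in A and 0.878 ± 0.0428 in B (SD, n = 5, summed exons).

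KRT80 fell by 0.46 on the log2 scale (adjusted p = 2.49e-05, SE 0.048, edgeR), from 20.3 to 25.4 CPM in A to 14.8 to 19.9 CPM in B. KRT7, at 3.33 to 5.26 CPM in A and 2.74 to 3.32 CPM in B, fell by 0.44 (SE 0.122, adjusted p = 0.015). In KRT7 the size differed by line, from -0.002 in NTC1 to -0.86 in sg1, and the call was lost without either library of sg1 (-0.33) or of sg2 (-0.38), adjusted p = 0.0595 to 0.0656 in edgeR. KRT20 went the other way, from 3.95, 5.31, 4.60, 4.84 and 6.54 CPM in A to 6.69, 7.69, 6.65, 5.37 and 7.105 CPM in B. It was higher in B within all 5 lines, though the ranges overlapped, with a log2 fold change of 0.41 (SE 0.095, adjusted p = 0.00517, edgeR). KRT23, at 0.357 to 0.496 CPM in A and 0.422 to 0.809 CPM in B, was not called (adjusted p = 0.429).

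**Figure D3:**
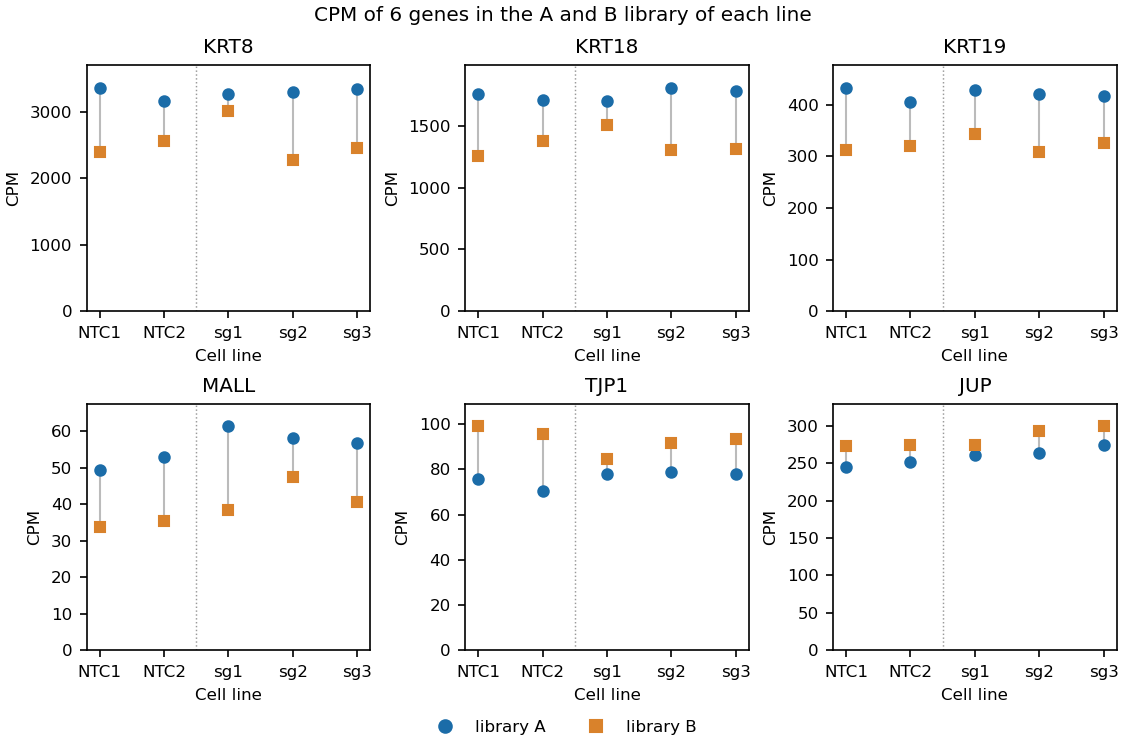
CPM (linear axis from 0) of KRT8, KRT18, KRT19, MALL, TJP1 and JUP in the A library (circles) and the B library (squares) of each line, with NTC lines left of the dotted line. KRT8, KRT18, KRT19 and MALL are lower in B in all 5 lines and TJP1 and JUP are higher.

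Among the called claudins, CLDN2 had the lowest log2 fold change. It stood at 74.0, 71.8, 77.8, 71.2 and 78.4 CPM in A and at 59.0, 50.4, 64.6, 66.5 and 66.3 CPM in B, with no overlap. The log2 fold change was -0.29 (SE 0.045, adjusted p = 0.000425, edgeR). CLDN7, the leading claudin, stood at 431, 469.8, 427, 424 and 425 CPM in A and at 364, 382, 388, 361 and 363 CPM in B, and fell by 0.23 (SE 0.027, adjusted p = 5.72e-05). CLDN1, which is required for the skin barrier, fell by 0.21, CLDN12 by 0.19 and CLDN4 by 0.14. CLDN1 (38.2 to 41.5 CPM in A, 32.2 to 35.4 CPM in B) and CLDN12 (51.4 to 55.0 CPM in A, 42.8 to 50.2 CPM in B) did not overlap between letters, while CLDN4 (270.4 to 301 CPM in A, 245 to 278 CPM in B) did. CLDN3 was not called, with -0.06 (adjusted p = 0.158), nor was CLDN15 with -0.04 (adjusted p = 0.821). CLDN23 was lower in B in all 5 lines and had -0.33, but was not called (adjusted p = 0.0617); it averaged 2.12 CPM.

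The scaffolds of the tight junction were higher in B. TJP1 stood at 75.9, 70.3, 77.8, 78.7 and 77.8 CPM in A and at 99.0, 95.9, 84.5, 91.9 and 93.7 CPM in B, and rose by 0.29 on the log2 scale (adjusted p = 0.000203, SE 0.041, edgeR). TJP3, which encodes ZO-3, stood at 35.0, 36.3, 37.6, 34.0 and 36.1 CPM in A and at 40.6, 40.2, 44.6, 43.7 and 41.7 CPM in B, and rose by 0.24 (SE 0.036, adjusted p = 0.000346). In both genes the letters did not overlap. CGN rose by 0.19 (SE 0.045, adjusted p = 0.00648), from 17.8 to 21.5 CPM in A to 19.8 to 25.4 CPM in B. OCLN, the occludin gene, had 0.11 with an adjusted p of 0.0496, and that call was lost when either library of NTC1 (0.10), NTC2 (0.07), sg2 (0.12) or sg3 (0.11) was left out, though not without those of sg1. The tricellulin gene MARVELD2 (-0.03), its relative MARVELD3 (0.06) and F11R (-0.03), which encodes the junctional adhesion molecule JAM-A, were not called. MARVELD2 ran from 51.4 to 56.2 CPM in A and from 52.0 to 53.7 CPM in B, MARVELD3 from 37.8 to 40.9 CPM and from 39.8 to 43.4 CPM, and F11R from 139 to 148 CPM and from 137 to 145 CPM.

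CDH1 was almost level between letters, at 289, 302, 289.8, 291 and 301 CPM in A and at 293, 314, 277, 286 and 309 CPM in B. Its log2 fold change was 0.006 (95% interval -0.05 to 0.06), and it was not called. CDH17 fell by 0.14 (SE 0.034, adjusted p = 0.00612, edgeR), from 264 to 291 CPM in A to 241 to 261 CPM in B. The catenin genes rose, CTNND1 by 0.19 (SE 0.027, adjusted p = 0.000221), JUP by 0.13 (SE 0.025, adjusted p = 0.00185) and CTNNA1, which encodes alpha-catenin, by 0.08 (SE 0.024, adjusted p = 0.0167). CTNNA1 ran from 444 to 461 CPM in A and from 471 to 486 CPM in B; its call was lost without either library of sg2 (0.08) and without sg3 B (0.09). EPCAM stood at 913 to 995 CPM in A and 856 to 958 CPM in B and was not called, with -0.08 (adjusted p = 0.0813).

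In the desmosome the cadherin genes DSG2 and DSC2 rose by 0.11 and 0.11 (adjusted p = 0.00644 and 0.0393, edgeR), and PKP3 rose by 0.16 (SE 0.030, adjusted p = 0.00109). DSG2 ran from 416 to 438 CPM in A and from 434 to 467 CPM in B, and DSC2 from 112 to 118 CPM in A and from 118 to 133 CPM in B. The call of DSC2 was lost without either library of NTC2 (0.07), sg1 (0.09) or sg3 (0.12) and without NTC1 B (0.12). PKP2, the plakophilin 2 gene, fell by 0.13 (SE 0.026, adjusted p = 0.00212). PKP2 and PKP3 thus moved in opposite directions between the letters. PKP2 went from 217 to 223 CPM in A to 194 to 210.2 CPM in B, and PKP3 from 94.1 to 103 CPM in A to 108 to 116 CPM in B. The plakophilin genes PKP4, at 107 CPM on average, and PKP1 are not among the 33 and were not called. MALL had the greatest fall of the 33, -0.51 (SE 0.045, adjusted p = 7.74e-06), with every B library below every A library.

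**Figure D4:**
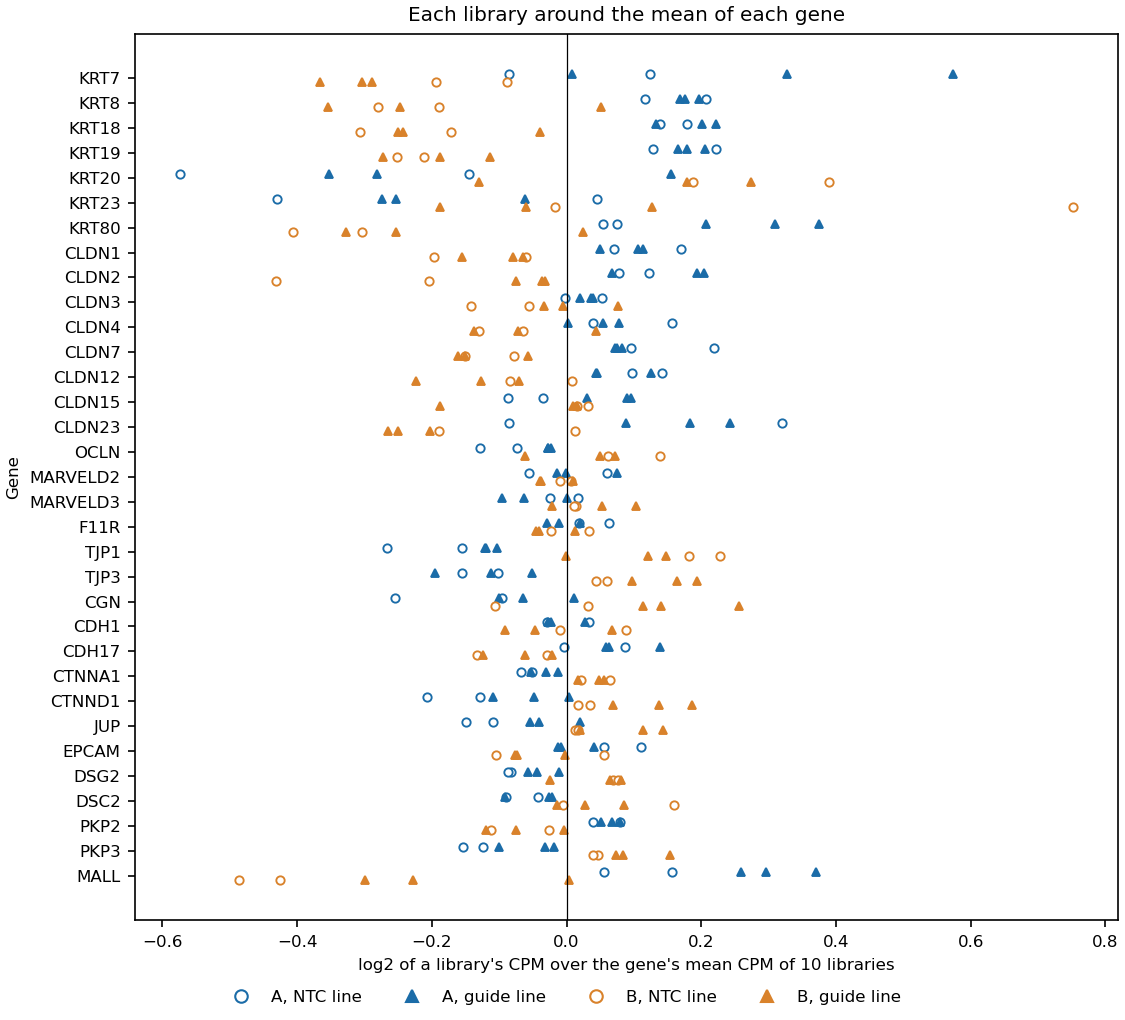
For each of the 33 genes, the log2 ratio of each library's CPM to the gene's mean CPM of 10 libraries (A blue, B orange, NTC lines open circles, guide lines triangles). For KRT8, KRT18, KRT19 and MALL all B libraries lie left of all A libraries; for TJP1, TJP3, CTNNA1, CTNND1, DSC2 and PKP3 they lie to the right.

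Across genes the B against A difference moved with transcript length. Among 9520 genes of 10 CPM or more the Spearman rho with the length of the longest transcript was 0.428, and among 28 members it was 0.531, a description with no test since genes share libraries. When 9523 genes were put in 10 bins by length, the median log2 fold change rose from -0.10 in the shortest bin to 0.10 in the longest. Several members lay far outside the medians of their bins. KRT8, with a longest transcript of 2862 bases, MALL with 3061 bases and CLDN2 with 3150 bases share a bin with a median of -0.05, and so does PKP3 with 2809 bases. KRT80, with 3894 bases, fell by 0.46 where the median was -0.004, and TJP3, with 3350 bases, rose by 0.24 where it was -0.009.

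With offsets for transcript length, an alternative added after the data were seen, 22 of the 33 genes were called, 9 higher and 13 lower. Of all 16411 genes tested, 4850 were called without these offsets and 4399 with them. KRT8 then had -0.35, KRT18 -0.33, KRT19 -0.31, MALL -0.49, TJP1 0.21, TJP3 0.25 and PKP3 0.20. OCLN (0.05, adjusted p = 0.310) and DSC2 (-0.0063, adjusted p = 0.907) were no longer called, and DSG2 had 0.06 (adjusted p = 0.0467) in place of 0.11. DSC2 has the longest transcript of the members in this range, 12325 bases.

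**Figure D5:**
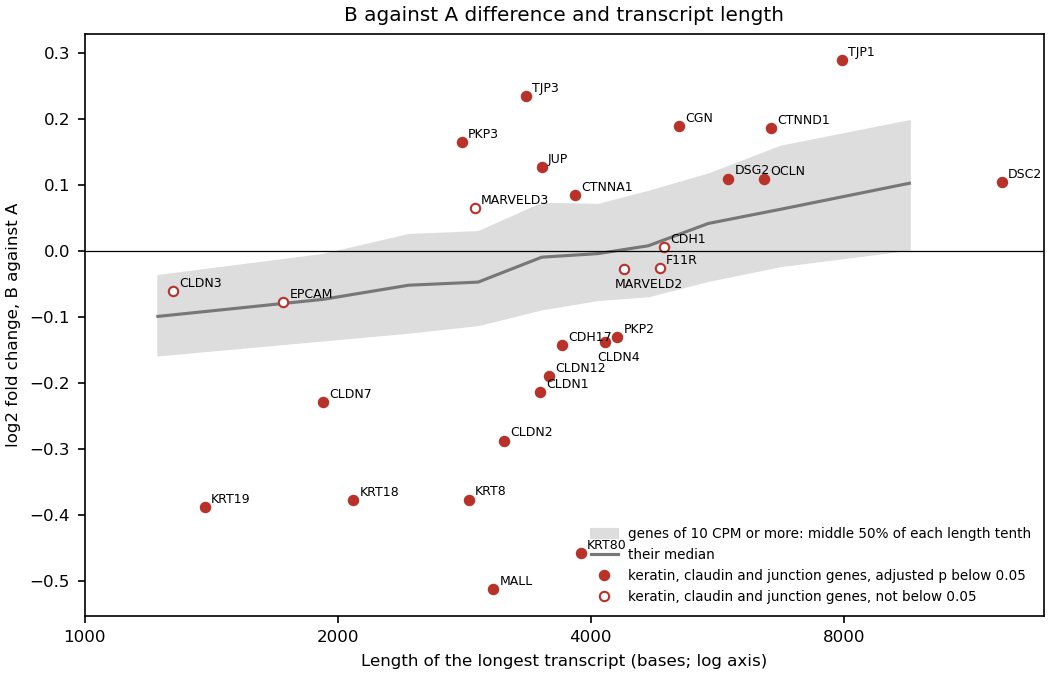
Log2 fold change of B against A libraries and the longest transcript length (bases, log axis) for the 28 members of 10 CPM or more (red; filled where the adjusted p was below 0.05). The grey line and band give the median and the middle 50% of 9523 genes in 10 length bins; the band climbs with length, and KRT8, KRT80, MALL and CLDN2 lie below it while TJP3 and PKP3 lie above it.

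Whether the B against A difference itself differed between guide and NTC lines was tested with an interaction term. No member passed (0% of all genes did; edgeR, smallest adjusted p of a member 0.867), 4 members stood at an unadjusted p under 0.05, against 5.73% of all genes, and DESeq2 called 0 members. Those 4 were TJP1, CLDN2, OCLN and KRT20. TJP1 rose in B by 0.38 and 0.45 in NTC1 and NTC2 and by 0.12, 0.22 and 0.27 in sg1, sg2 and sg3, as log2 ratios of CPM. CLDN2 changed by -0.33 and -0.51 in the NTC lines and by -0.27, -0.10 and -0.24 in the guide lines.

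The other genes of these pathways were read from 13 lists, cell type markers included, with 206 genes in the table beside the 33. Between guide and NTC lines none of 139 tested was called by edgeR, against 0.0231% of all genes. An unadjusted p under 0.05 was found in 26 (18.7%), against 7.98% of all genes. DESeq2 called 2, the alpha-actinin genes ACTN1 and ACTN4, named after their values were seen, among 55 of 17335 genes in all. Between letters 53 of 134 tested were called (39.6%), 25 higher and 28 lower in B, against 29.6% of all genes. The lists overlap in a few genes and were chosen with earlier results of these data known.

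Of 12 further keratins tested, 4 were lower in B and none was higher. KRT17, a keratin of stressed and basal epithelia, averaged 16.7 CPM in A and 9.49 CPM in B, with a log2 fold change of -0.85 (SE 0.128, adjusted p = 0.000294, edgeR). KRT6A with -1.32, KRT13 with -0.66 and KRT6B with -1.30 averaged 1.01 CPM or less over the 10 libraries. Of 9 gap junction genes tested, 4 were lower and none was higher. Among the lower ones were the connexin genes GJB1 (-0.34) and GJB5 (-0.50). Of 9 MAL family and raft genes, 5 were lower and none was higher. MAL2, the MAL relative of apical transport, averaged 398 CPM in A and 349 CPM in B (-0.19), FLOT2, a flotillin gene, had -0.12 and CAV2, a caveolin gene, -0.44. CAVIN1 (-0.42) and CAV1 (-0.97) were the others. Members beyond the 3 most abundant of a direction, here KRT6B, CAVIN1 and CAV1, were named after their values were seen.

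Of 30 further tight junction and polarity genes, 7 were higher and 4 lower in B. SCRIB (0.08) and SYMPK (0.22) were among the higher ones, and LLGL2 (-0.09), PRKCI (-0.17) and CRB3 (-0.13) were the most abundant of the lower ones. Of 24 further adherens junction genes 7 were higher, led by ACTN4 (0.13), ADAM10 (0.19) and LMO7 (0.19), and 4 were lower, led by VASP (-0.08), NECTIN3 (-0.09) and CDH11 (-0.09). In the desmosome list DSP, the desmoplakin gene, averaged 401 CPM in A and 482 CPM in B (0.27, adjusted p = 5.94e-05), and PERP fell (-0.18), while 4 of 6 tested were not called.

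Of 22 epithelial transcription and splicing regulators 8 were higher in B and 1 was lower. HNF4A (0.17) and CDX2 (0.17) were among the higher ones and CDX1 (-0.09) was the lower one. Of 7 mesenchymal transition genes tested, 3 were lower, CDH11, S100A4 (-0.44) and PRRX1 (-1.47). They averaged 85.4, 40.8 and 0.201 CPM, and the summed level of the list was 105 to 148 CPM. Of its 15 genes 4 averaged at least 1 CPM, CDH11, S100A4, FOXC2 and SNAI1, while ZEB2, TWIST1 and TWIST2 had no count in any library. Colorectal markers gave 4 higher, VIL1 (0.16) and CDX2 among them, and 3 lower, GPA33 (-0.21), CDX1 and CEACAM6 (-0.47). Of the markers of other cell types, LUM of the fibroblast list was lower (-0.63, at 1.23 CPM on average); the leukocyte sum was 43.4 to 47.0 CPM in A and 35.9 to 45.7 CPM in B, and its part in the differences was not tested.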

How the data were processed

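The 10 libraries of LS180 lines were poly(A)-selected and copied into randomly primed cDNA, per the labels' protocols. The submitters' processing notes name CASAVA 1.8.2, TopHat2 2.0.8, FastQC 0.11.2 and the hg38 build; for the annotation release and the counting settings, the sources used here give nothing. The authors deposited 1 table of estimated counts per gene, with 7.12% of values not whole, which were rounded to whole numbers. Of 58870 genes, 58597 matched GENCODE 29 identifiers (GRCh38), which gave lengths, GC content and coordinates.

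Counts were tested with edgeR 4.0.16 (R 4.3.3): TMM scaling, filterByExpr, quasi-likelihood tests, 2-sided, Benjamini-Hochberg adjustment over all genes tested, threshold 0.05. Guide lines were compared with NTC lines on counts summed per line; other comparisons used all 10 libraries. CPM use TMM-scaled library sizes. DESeq2 1.42.0, other scaling and filters, GC or length offsets, a letter block and left-out libraries or lines were alternatives. The pipeline was tested on simulated counts.

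Same-lettered libraries deviated together. The B minus A difference in log2 CPM (pseudocount 0.5) correlated between all 10 pairs of lines, at 0.189 to 0.361 over 16411 genes. Over 9527 genes with a mean of at least 10 CPM it correlated at 0.486 to 0.781. The letters were therefore taken to pair the samples, a sign from the data, since the labels do not explain them. Named genes are the 33, RNASE1 and, of each other list, up to 3 of the most abundant called genes per direction. Members and lists were chosen with earlier results of these data known. Total counts of 39026564 to 45050950 per library set the precision, and intervals cover the spread between libraries or lines only. The values of some genes of these lists are not reported here.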

Additional observations from a re-analysis of the deposited data

Results flagged for a closer look

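For each of the 33 genes the highest and lowest library was compared with the rest in 4 sets, the 4 NTC, the 6 guide, the 5 A and the 5 B libraries. Of 132 sets, 7 (5.30%) held a library whose gap to its neighbour was large for the range by Dixon's criterion. The criterion marks about 1 in 20 sets of independent values by chance. Here the sets share libraries, and the NTC and guide sets mix A and B libraries. Whether 7 is more or less than chance would give was therefore not tested. CLDN7 stood at 469.8 CPM in NTC2 A, against 424 to 431 CPM in the other A libraries. DSG2 stood at 434 CPM in sg1 B, against 461 to 467 CPM in the other B libraries. CLDN15 was lowest in sg3 B at 2.29 CPM, against 2.62 to 2.67 CPM in the other B libraries and up to 2.79 CPM in the other guide libraries, and so was marked in both sets. KRT23 reached 0.809 CPM in NTC1 B, against 0.422 to 0.524 CPM in the other B libraries, and CLDN23 reached 2.14 CPM in NTC2 B, against 1.76 to 1.86 CPM. MARVELD3 was lowest among the NTC libraries in NTC2 A, at 39.7 CPM against 40.7 to 40.9 CPM.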

How the results depend on the processing

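Between guide and NTC lines none of the 33 genes was called, except 1 (MALL) with DESeq2 and 3 (MALL, CLDN2 and KRT80) with no filter on low counts; the other 23 alternatives gave 0. With no filter, sg2 against NTC called 1 member, MALL, and the other alternatives of the single-line comparisons, of the guide lines among themselves and of the letter by arm term gave 0. With the letter as a replicate block, the count of members was 0 in each comparison it was fitted for, so pairing by letter changed no call. Over all genes the guide comparison called 4, against 55 with DESeq2, 238 with no filter, 2 with the block, 7 with length offsets, 11 in the A libraries alone and 1 to 29 when a library or line was left out; the cause was not tested. Each single line against NTC called 1 gene of all, and NTC2 against NTC1, the guide lines among themselves and the letter by arm term called 0. With DESeq2, with no filter and with the block, sg1 called 6, 69 and 4 genes of all, sg2 4, 95 and 2, sg3 4, 86 and 6, NTC2 against NTC1 2, 57 and 2 and the guide lines among themselves 8, 141 and 8. The letter by arm term called 3 with DESeq2, 101 with no filter, 3 with a mean of at least 1 CPM and 2 to 8 when a library was left out. Leaving out 1 library leaves a line with 1 letter only, and MALL then had 0.12 when NTC2 B was dropped and 0.39 when NTC2 A was.

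The B against A count of 24 ranged from 17 to 25 over 24 alternatives. Over all genes 4850 were called, and 2642 to 5275 in the alternatives. When a library or line was left out, 21 to 24 members and 3399 to 5010 of all genes were called. The NTC lines alone gave 17 members and 3299 of 15678 genes, and the guide lines alone 18 members and 2642 of 15971 genes. Of the called genes, DSC2 alone turned its direction, to -0.0063 with length offsets. The calls of OCLN, DSC2, KRT7 and CTNNA1 were lost most often, in 15, 12, 7 and 7 of 24 alternatives, the turn of DSC2 not counted. In the same order 12, 10, 6 and 5 of these losses came from the 15 alternatives with a library or line left out. With line as a covariate, leaving out 1 library gives nearly the same fit as leaving out its line, so these are not separate checks. The members with the fewest counts that were not called, KRT23, CLDN15 and CLDN23, averaged 0.480, 2.61 and 2.12 CPM; the part of depth in this was not tested.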
